A study of Mus musculus with 11 samples.

Results

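Of 94963 accessible regions in one list of MPC2 chromatin, 2407 (2.53%) lay at the 3' ends of coding genes. A region was taken when it was more than 1 kb from every annotated transcript start, held fewer than 50 coding bases, and either overlapped a 3' UTR (the transcribed stretch after the stop codon) of a protein-coding transcript or reached into the 1 kb after the end of a coding gene. The rule used position alone and no measured level. The assay was ATAC-seq (a transposase cuts open DNA and leaves sequencing adapters there) on MPC2 cells, a conditionally immortalised clone of mouse mesenchymal progenitors. Cultures were kept undifferentiated (MSC) or differentiated for 3 weeks into osteocyte-like cells, and received either vehicle (DMSO) or FG-4592 (Roxadustat, an inhibitor of the prolyl hydroxylases that mark HIF for breakdown) at 50 uM for 48 hours. By the labels, MSCs gave 3 vehicle and 3 FG-4592 libraries, and osteocytes gave 2 vehicle and 3 FG-4592 libraries. A library that the authors removed for quality was not analysed here. The list pools every culture into 1 value per region, read here as a mean log2 CPM, that is, cuts in the region after scaling for library size, so neither drug nor stage could be compared from it, no value carries a replicate error, and the depth of each library is unknown. Ranges in parentheses after shares are 95% Wilson intervals, and those after medians are 95% binomial intervals of the median. Both cover counting error only, because the regions come from a single list.

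The 3' UTR is the part of a messenger RNA where microRNAs and RNA-binding proteins act, and it ends where the transcript is cut and polyadenylated, usually a short way after a signal that reads AATAAA in the DNA. RNA polymerase reads on past that point before it lets go of the template. Open chromatin at a gene's end can hold enhancers or insulator sites bound by CTCF, a zinc-finger protein that helps fold chromatin into loops, and such elements need not act on the gene they lie next to. AP-1 (Jun and Fos dimers) is a widespread enhancer factor, and HIF binds a short core within the hypoxia response element (HRE).

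The sequences shown first carry a CTCF core, the motif whose share differed most, among those searched, from the share in other regions away from starts. Each is from mm10, with 8 bases on either side of the core. The capitals mark the core as searched, which is CCA, AG and GGC in this order with any 2 bases in each gap, on the strand where it reads so. They come from the 6 highest regions with the core in their central 200 bp.
Tsta3, chr15:75923450-75923477, minus strand: gggagctgCCACCAGAAGGCgctgcctt
Scgb1a1, chr19:9082628-9082655, minus strand: cgtcgtggCCACCAGGGGGCagtgtagt
Slc4a3, chr1:75559668-75559695, minus strand: aaaaaccaCCACCAGAGGGCtacacacg
Arvcf, chr16:18406382-18406409, plus strand: ttggctcaCCAGGAGAGGGCacagtcct
Csrp1, chr1:135753082-135753109, minus strand: ctgcatggCCAGCAGAGGGCagcctgtc
Elf4, chrX:48410307-48410334, minus strand: gccaatatCCAGCAGGTGGCgctgtgga
The regions around Slc4a3 (an anion exchanger) and Arvcf (a catenin) lay inside the 3' UTR. Those at Tsta3 (GDP-fucose synthesis), Scgb1a1 (a secretoglobin), Csrp1 (a LIM-domain protein) and Elf4 (an ETS factor) lay after the gene end.

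The AP-1 sites below come from the highest regions that hold TGAGTCA or TGACTCA, in capitals. They are shown to place the site in strong regions, which are also wide: of the 865 regions of at least 500 bp, 30.1% held one somewhere, against 19.9% of all 3' regions. All are read on the plus strand of mm10.
Btd, chr14:31669320-31669346: cagcccgggtTGACTCAtcgcttgcaa
Prkar1a, chr11:109671896-109671922: tttgctggaaTGAGTCAcagcacccag
Dlx2, chr2:71542905-71542931: ttcacaggagTGACTCActgagttctg
St6galnac4, chr2:32598008-32598034: tcctgcctcaTGAGTCAgattccaaag

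The HRE cores shown are ACGTG or GCGTG, in capitals, on the strand that reads so. FG-4592 inhibits the enzymes that mark HIF for breakdown, and these are from the highest regions that hold the core.
Ctdsp1, chr1:74397638-74397662, plus strand: tcctctgaaaGCGTGgagcttcaga
Nmt1, chr11:103067149-103067173, plus strand: agaaagctccACGTGacacatagta
Olfr750, chr14:51064665-51064689, minus strand: tgtgcttgttACGTGgtagtggact

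The last set shows the poly(A) signal AATAAA, in capitals and on the strand of the gene, at gene ends that an accessible region covers.
Ctdsp1, chr1:74397254-74397281, plus strand: actctaaacaAATAAAaaatacacaaaa
Mknk2, chr10:80665328-80665355, minus strand: gtaaggatttAATAAAagtcatttaaaa
Fhl3, chr4:124708582-124708609, plus strand: cagagattgcAATAAAgcagtgtgaggg
These regions extend past the end of the gene into the downstream DNA. The one at Ctdsp1 (a small phosphatase of the polymerase tail) overlapped 285 bases of 3' UTR and had its middle 411 bp after the gene end. The region at Mknk2 (a kinase of the translation factor eIF4E) overlapped 54 bases and that at Fhl3 (a LIM-only protein) overlapped 101 bases.

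By position the regions formed 3 kinds. In 1291 (53.6%, 51.6 to 55.6) the region overlapped the last 3' UTR of the gene, and in 85 (3.53%, 2.86 to 4.35) it overlapped a UTR of a shorter transcript that ends before the gene's last stop codon. The other 1031 (42.8%, 40.9 to 44.8) reached into the DNA after the gene end without touching a 3' UTR. Nearly all of these had their middle past the end, and the exceptions had it at −92 bp or closer. Of the 1376 regions that touched a 3' UTR, 1007 (73.2%) were wholly inside it. Regions on a last 3' UTR had their middle at a median of −905 bp from the gene end (negative is inside the gene, quartiles −1940.5 and −335), and those after the end at a median of 706 bp beyond it (quartiles 464.5 and 957.5). The gene end itself was covered by 267 regions (11.1%, 9.90 to 12.4). A poly(A) signal AATAAA stood in the last 40 bp of 162 of these 267 ends (60.7%, 54.7 to 66.3), against 57.7% (57 to 58.3) of the ends of 21671 coding genes with a 3' UTR, and the first interval contains the second value.

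The gene end was a local low point in accessibility. Around all coding gene ends, counting bases more than 1 kb from any start, 2.83% of bases lay inside a region in the 100-bp bin from 700 to 600 bp before the end. The share fell to 1.93% in the last 100 bp of the gene and was 2.12% in the first 100 bp after it. It came back to 3.22% between 700 and 800 bp after the end and was highest, 3.43%, in the bin that starts at 2000 bp, falling to 2.76% in the bin that starts at 4900 bp. The low point was deeper for genes with a 3' UTR of 2 kb or more, at 1.51% in the last 100 bp, than for genes with a shorter UTR, at 2.08%. G and C content, counted over all bases including those near starts, was also low at the end. It was 37.2% in the last 100 bp and 42.7% in the first 100 bp after. From 600 to 500 bp before the end it was 45.8%. Farther out it was 45.2% both from 100 to 200 bp after the end and in the bin that starts at 2000 bp. Accessibility rose from 2.66% to 3.43% between these bins. The part of base composition in the low point was not tested.

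**Figure D1:**
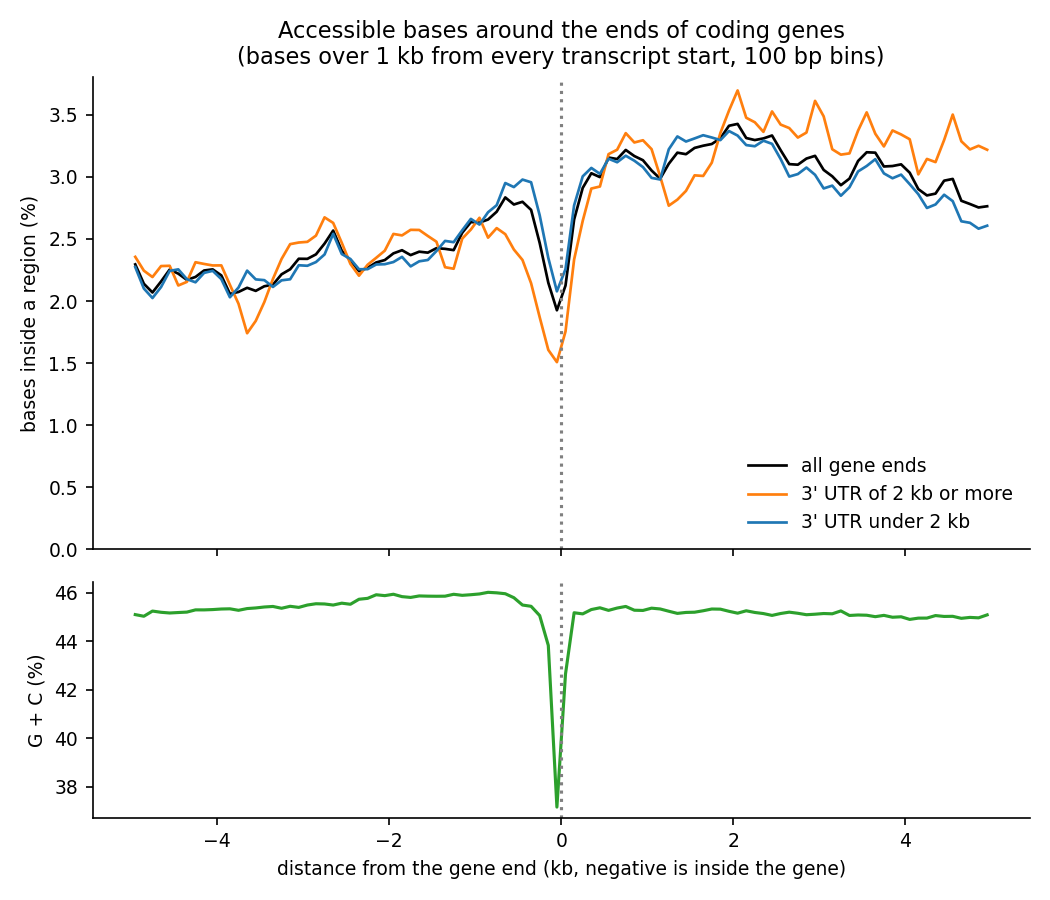
Percent of bases inside an accessible region (upper panel) and percent G and C (lower panel, axis not from 0) in 100-bp bins up to 5 kb on either side of the ends of coding genes, for all genes and by 3' UTR length. The upper panel leaves out bases within 1 kb of a start and the lower panel does not. Both curves drop at the gene end, accessibility to 1.93% and G and C to 37.2% in the last 100 bp of the gene.

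Over whole features, and again more than 1 kb from every start, 2.26% of 30.1 Mb of 3' UTR lay inside a region. The same share was 2.80% in the 1 kb after gene ends, 2.46% in coding exons, 2.05% in introns of coding genes and 1.10% outside genes. The windows around starts stood at 11.1%. Among 7124 single-exon 3' UTRs of at least 1500 bp, divided into equal parts, the part next to the stop codon had 1.98% of its bases in a region, the middle part 2.24% and the part before the gene end 2.27%. The stretch just after a gene was thus more often open than the UTR before it, and both were closer to introns and coding exons than to promoters.

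The level was close to that of other regions away from starts. Its median was 1.94 log2 CPM (1.88 to 2.01), its quartiles were 1.19 and 2.90, and single regions lay between −0.29 and 6.51. Medians were 1.97 in coding exons, 1.89 in introns, 1.87 between genes and 3.89 at promoters. The intervals of the 3 kinds of 3' region overlapped, at 1.94 (1.87 to 2.00) on the last 3' UTR, 1.70 (1.25 to 2.32) on an earlier UTR and 1.95 (1.83 to 2.08) after the end. The 2407 regions held 1.64% of the summed CPM of the list. A level of 4 or more was reached by 233 of them (9.68%, 8.56 to 10.9), against 9.17% (8.18 to 10.3) in coding exons, 7.69% (7.41 to 7.99) in introns, 7.98% (7.71 to 8.27) between genes and 48.4% (47.8 to 49.1) at promoters.

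Width moved strongly with the level, and the 3' regions were slightly narrower than the rest. Their median width was 387 bp (quartiles 276 and 631), against 405 bp in introns, 410 bp between genes and 867 bp at promoters. Across the 2407 regions, the log2 width and the level had Pearson's r = 0.88 and Spearman's rho = 0.88, a description across regions of 1 list in which a wider region also collects more cuts. When all regions were put into 20 bins of width, the 3' regions had a higher median level than introns in 18 of 20 bins and than the DNA between genes in 18 of 20 bins. The mean difference, weighted by the number of 3' regions in each bin, was 0.11 log2 CPM against introns and 0.14 against the DNA between genes. Against promoter regions of the same width they were higher in 10 of 20 bins, and in the wide bins they were lower, by up to 1.03 on the log2 scale (difference −1.03).

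**Figure D2:**
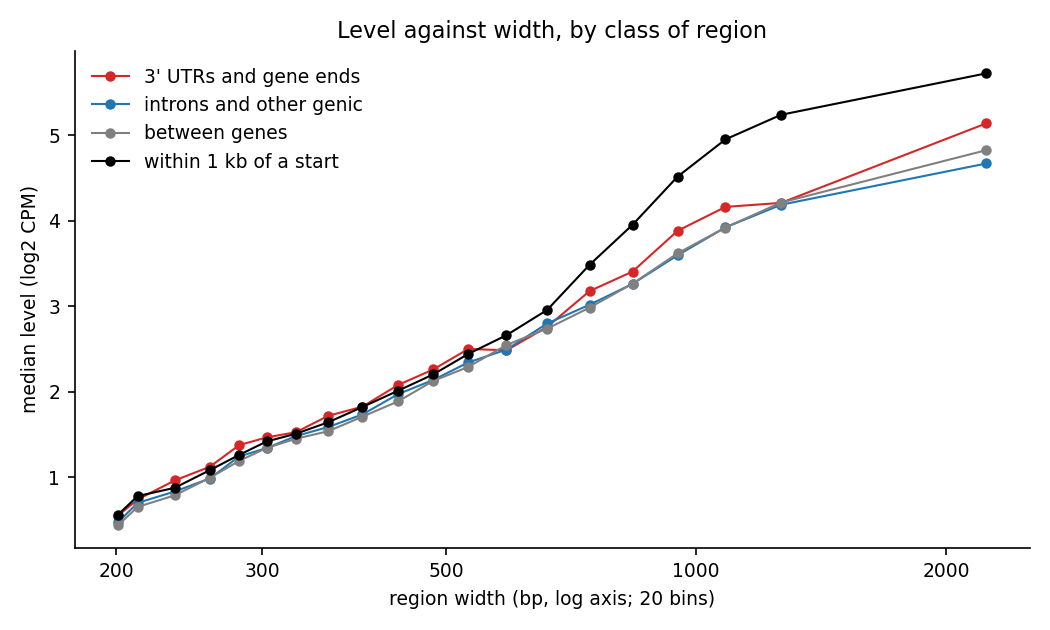
Median level (log2 CPM) against region width (bp, log axis) in 20 width bins, with 1 point per bin for 3' UTR and gene end regions, introns, DNA between genes and promoters. The 3' regions run just above introns in 18 of 20 bins, and promoters leave the other classes in the wide bins.

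The highest 3' regions mixed housekeeping, signalling and developmental genes. Each is named here by the gene whose end it touches, which need not be the gene it acts on. Btd (biotinidase, which recycles biotin) had the highest level, 6.51, in a region of 2471 bp that covered its 3' UTR and the DNA beyond. Ctdsp1 followed at 6.46 over 1392 bp. Nmt1, which attaches myristate to proteins, had 6.32 in a region of 1589 bp that lay wholly in its 3' UTR. After these came Prkar1a, a regulatory subunit of protein kinase A, at 6.27 and entirely after the gene end. The gap from the first to the last of them was small beside the range of the whole set. Prkar1a had 2132 bp, with 1 AP-1 site and 5 HRE cores.

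The next of the 12 highest were again split between UTRs and downstream DNA. The region after Arl5c (a small GTPase gene) had 6.21, and it lay 889 bp from a RefSeq start of Plxdc1 that the GENCODE set used for the rule does not hold. The region near Olfr750, an odorant receptor gene, had 6.20 over 2268 bp and sat after the gene end with its middle 1833 bp away. Dlx2, a homeobox factor of skeletal and neural patterning, had 6.11 in only 764 bp, and this region had 2 AP-1 sites and 1 HRE core. It was the narrowest of the 12. Midn (a protein that takes nuclear proteins to the proteasome) had 6.07 after its end. St6galnac4 (a sialyltransferase) had 6.05 inside its 3' UTR, 1312 bp from the start of its neighbour St6galnac6. Ehd2, an ATPase of caveolae, had 5.92 and 3 AP-1 sites in its 3' UTR. Bmf, a cell death gene of the BH3-only kind, had 5.91 in its 3' UTR with neither an AP-1 site nor an HRE core.

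Among regions on earlier 3' UTRs, where a short transcript ends inside a longer gene, the highest was at Cyb5r3 (a cytochrome b5 reductase) with 5.33, its middle at −3781 bp from the gene end. Fancc, a DNA repair gene, had 4.92 over 2163 bp. Nfatc2, a calcium-regulated transcription factor, had 4.84 in a region with 3 AP-1 sites, Tsc22d4 (a leucine zipper protein) had 4.77, and Dnah3, a dynein heavy chain of cilia, had 4.71. All 5 lie before the last stop codon of their gene, so the name of 3' UTR holds for a shorter transcript only.

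Most genes with a 3' region had a single one. The regions touched the 3' end of 2302 of 21938 coding genes (10.5%, 10.1 to 10.9). A region that touched several genes counts for each of them. Of these genes, 2068 had 1 region, 216 had 2, 16 had 3 and 2 had 5. Cxcl12 and Zbtb20 had 5 each, and of the 16 genes with 3, Rassf2, Csf1 and Trim56 had the highest summed CPM over their 3' regions. Cxcl12, the chemokine with which stromal cells hold blood stem cells in the marrow, had 5 regions with a level of 3.94, 2.94, 1.86, 2.05 and 5.24 in the order of transcription. The first 4 were in 3' UTRs of its transcripts and the last, 1657 bp wide, lay after the gene end. The regions nearest to the gene end on the inside were the weakest and the one past it was the strongest. Rassf2, a Ras-association protein, had 2.77, 3.31 and 5.54, the last covering the gene end. Csf1, the growth factor of macrophages and osteoclast precursors, had 4.53 in a region of 1089 bp that overlapped only 83 bases of 3' UTR, and 3.24 and 4.40 after the end. Trim56, a ubiquitin ligase of antiviral defence, had 3.30, 2.81 and 1.84, all in its UTR, and here the level was lowest next to the gene end.

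Zbtb20, a zinc-finger repressor, had 5 regions spread over a 3' UTR of 23861 bp, all weak, with levels of 0.66, 1.11, 0.40, 0.58 and 1.06. Its promoter regions reached 8.31, so a strong start stood beside a weakly open UTR. The gene is on chromosome 16, which had the most 3' regions for its gene number, 16.9 per 100 coding genes. It also held many regions of every kind, and 3' regions made up 1.91% of them, below the 2.53% of the whole list.

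**Figure D3:**
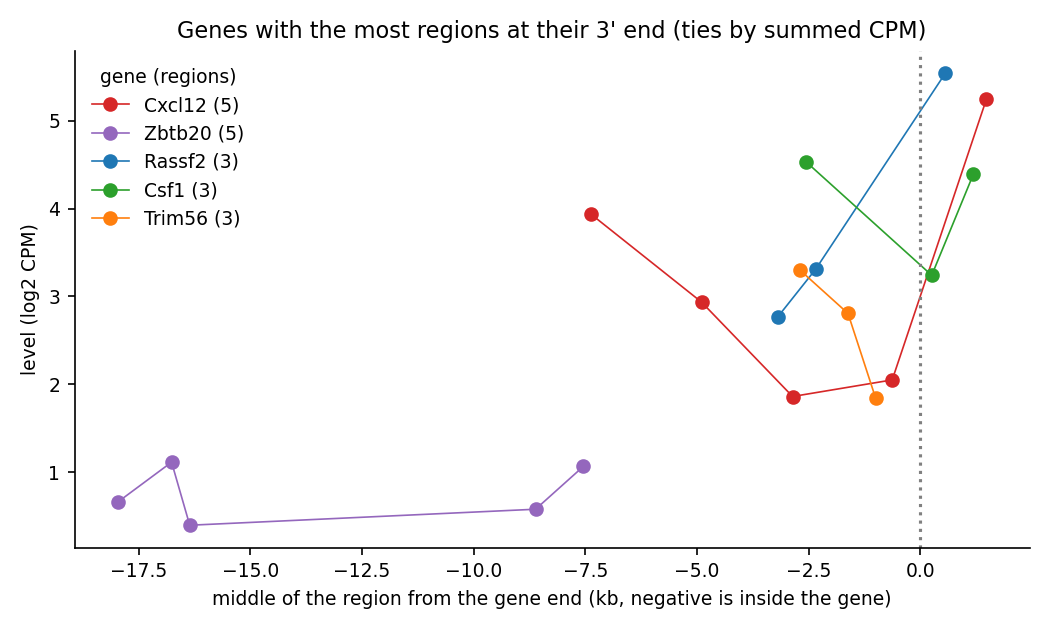
Level (log2 CPM) of each 3' region of the 2 genes with 5 such regions and of the 3 with the highest summed CPM among the 16 genes with 3, against the distance of its middle from the gene end (kb, negative inside the gene), with 1 point per region and lines joining regions of a gene. The regions of Cxcl12 and Rassf2 past the gene end are their highest, at 5.24 and 5.54, and the 5 of Zbtb20 stay between 0.40 and 1.11.

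Genes with a 3' region had an accessible start more often than genes without. A region within 1 kb of one of the gene's starts was present for 1884 of 2302 genes with a 3' region (81.8%, 80.2 to 83.4) and for 62.0% (61.3 to 62.7) of the 19636 coding genes without. The level at the start said little about the level at the end: over 1994 3' regions whose gene had a promoter region, Pearson's r was 0.04 and Spearman's rho 0.01, a description across regions of the same list.

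Long 3' UTRs more often carried a region, but per length the number did not rise. A region overlapped the 3' UTR in 1.31% (1.07 to 1.59) of 7339 genes whose longest UTR was under 500 bp, 3.19% from 500 to under 1000 bp, 6.71% from 1000 to under 2000 bp, 11.8% from 2000 to under 4000 bp and 19.1% (17.2 to 21.2) of 1458 genes with 4000 bp or more. Per 100 kb of each gene's longest UTR, more than 1 kb from starts, the numbers of regions were 7.33, 4.93, 5.25, 4.84 and 4.06 in the same order. Regions on any 3' UTR of the gene were counted, but only the length of its longest, so these are not strict densities. A region counts as overlapping from its first base, which favours short UTRs in the second measure.

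**Figure D4:**
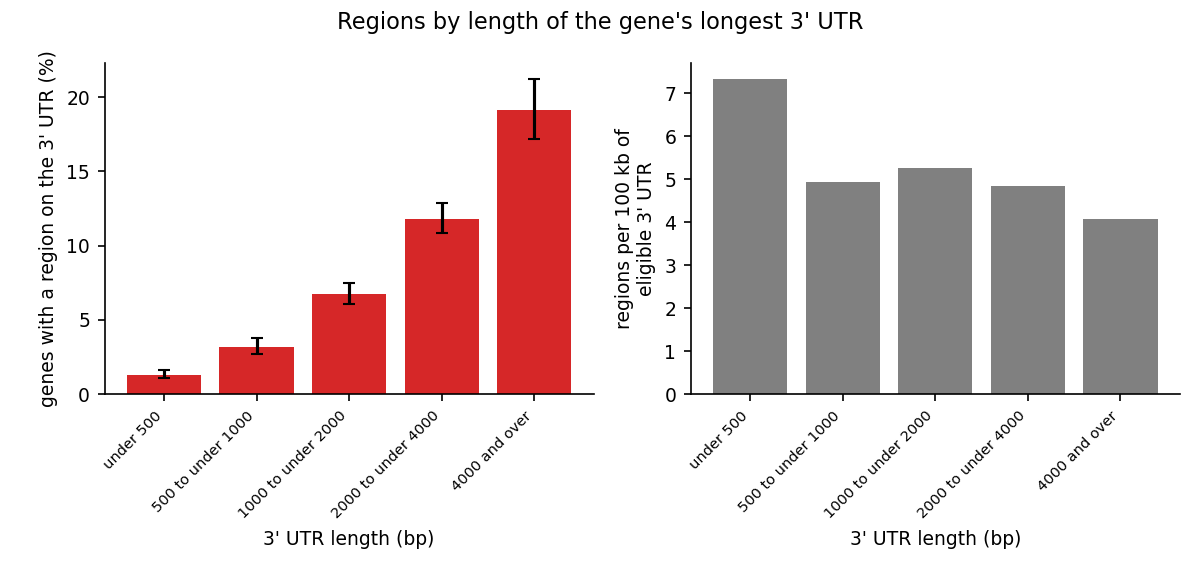
Left, percent of coding genes with a region on the 3' UTR by length of the gene's longest 3' UTR, with 95% Wilson intervals, from 1.31% to 19.1%. Right, regions on any 3' UTR of these genes per 100 kb of their longest 3' UTR more than 1 kb from starts. These values lie between 4.06 and 7.33 with no rise with length.

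Gene ends that face another gene's end had 3' regions more often than ends followed by a tandem gene or by no coding gene. Among 15999 gene ends more than 2 kb from every start, 12.5% had one. Where the next coding gene within 10 kb pointed the opposite way, so that the transcripts converge, the share was 16.5% (15.3 to 17.8) of 3228 ends. It was 12.1% (10.8 to 13.5) of 2293 ends followed by a gene in tandem and 11.3% (10.7 to 11.9) of 10085 ends with no coding gene within 10 kb. The 393 ends inside another gene had 12.2% (9.34 to 15.8), an interval that overlaps that of converging ends. With the comparison kept to genes that had a promoter region, the shares were 18.2% (16.7 to 19.8), 14.3% (12.7 to 16.1) and 15.3% (14.4 to 16.2), and 11.0% (7.83 to 15.1) inside another gene. Among genes without a promoter region, ends inside another gene had 15.5% (9.88 to 23.4) and converging ends 11.2% (9.18 to 13.6). A converging end offers the UTRs and downstream windows of 2 genes, and 119 of the 2407 regions (4.94%) touched coding genes of both strands. The part of that overlap in the higher share was not tested.

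Of the motifs searched, the CTCF core had the share furthest from that of other regions away from starts. Of 2407 regions, 271 (11.3%, 10.1 to 12.6) had the core on either strand in their central 200 bp. The share was 6.65% (6.47 to 6.83) in the 71019 other regions away from starts, 7.50% (6.61 to 8.51) in coding exons, 6.18% (5.92 to 6.44) in introns, 7.01% (6.75 to 7.28) between genes and 4.02% (3.77 to 4.29) at promoters. None of these intervals reached the one of the 3' regions. Over the whole region the core was in 16% of 3' regions, against 10.1% of other regions away from starts and 10.4% of all regions. The excess was there in both kinds with enough regions, at 11.1% (9.48 to 12.9) on the last 3' UTR and 11.8% (10.0 to 13.9) after the gene end.

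Composition and width were compared next, since both move with a motif. In regions of 45 to 50% G and C the central core was in 12.5% (10.2 to 15.2) of 3' regions and 6.65% (6.33 to 6.97) of the others away from starts, and from 50 to 55% in 12.2% (10.1 to 14.7) and 7.02% (6.66 to 7.39). In the lowest and highest bands of G and C, with 80 and 89 regions at 3' ends, the intervals overlapped. Among regions of 200 to 300 bp the shares were 15.8% (13.4 to 18.5) and 10.0% (9.62 to 10.4), and among wider ones 9.02% (7.71 to 10.5) and 5.17% (4.98 to 5.37). Regions with a central core were narrower, with a median of 306 bp against 403.5 bp without, and had nearly the same level, 1.90 (1.76 to 2.00) against 1.95 (1.88 to 2.03). Read on the strand of the gene, 158 regions had the core only in the sense direction, 110 only in the antisense direction and 3 in both.

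AP-1 sites were fewer than in introns and between genes. The central 200 bp held TGAGTCA or TGACTCA in 264 of the 3' regions (11.0%, 9.78 to 12.3), against 14.0% (13.6 to 14.4) in introns, 14.2% (13.9 to 14.6) between genes, 9.20% (8.21 to 10.3) in coding exons and 6.05% (5.74 to 6.38) at promoters. Over whole regions the share was 19.9% (18.4 to 21.5) at 3' ends, 23.8% (23.5 to 24.1) in the other regions away from starts and 22.1% in all regions. From 45 to 50% G and C the central shares were 14.5% (12.0 to 17.3) and 15.1% (14.6 to 15.5), with overlapping intervals, and from 50 to 55% they were 9.35% (7.49 to 11.6) and 12.7% (12.2 to 13.2). That was the only one of 6 bands in which the intervals were apart. The 3' regions had the higher value under 40%, at 16.3% and 15.9%, and from 60% on, at 6.74% and 4.74%. Only 10 regions had a central AP-1 site and a central CTCF core together. Regions with a central AP-1 site had a median level of 1.87 (1.63 to 2.13) and those without 1.95 (1.89 to 2.02), and these intervals overlapped.

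Over all regions, HRE cores had nearly the same share as elsewhere away from starts. ACGTG or GCGTG stood in the central 200 bp of 19.6% (18 to 21.2) of 3' regions, against 19.8% (19.5 to 20.1) of other regions away from starts and 39.4% (38.8 to 40.1) of promoter regions, which are rich in CpG. Over whole regions the share was 39.4% (37.5 to 41.4), against 38.5% (38.2 to 38.9) and 72.3%. By G and C content, the central shares were apart from 45 to 50%, at 15.1% (12.5 to 18) of 3' regions and 19.7% (19.2 to 20.2) of the others, and the intervals overlapped in the other 5 bands. A core of 5 letters is common by its length, and a match is not a bound site. For TEAD (CATTCC) the central shares at 3' ends and in other regions away from starts were 14.7% (13.4 to 16.2) and 15.5% (15.2 to 15.7), for RUNX (TGTGGTT) 9.22% (8.13 to 10.4) and 9.82% (9.60 to 10.0), for C/EBP (TTGC, any 2 bases, AA) 9.51% (8.41 to 10.8) and 10.9% (10.7 to 11.1), and for NFI (TGGC, any 5 bases, GCCA) 1.66% (1.22 to 2.25) and 1.12% (1.04 to 1.20). All were searched on both strands. The intervals of the 2 sets overlapped for TEAD, RUNX and C/EBP, and for NFI they were just apart.

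**Figure D5:**
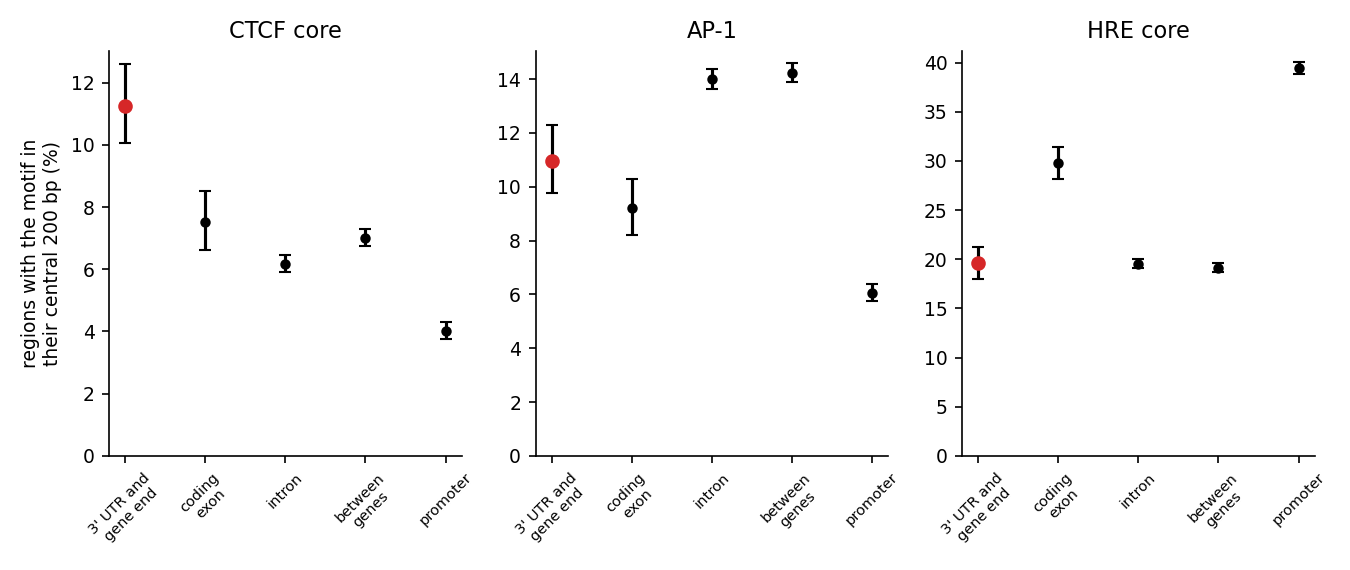
Percent of regions with a CTCF core, an AP-1 site or an HRE core in their central 200 bp, by class of region, with 95% Wilson intervals and the 3' regions in red. The 3' regions are highest for CTCF (11.3%), below introns for AP-1 (11.0% against 14.0%) and level with introns for HRE cores (19.6% in both).

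The lists of genes tied to bone and oxygen sensing were read against the 10.5% of all coding genes with a 3' region and the 13.4% of genes with an accessible promoter. Most genes of each list had an accessible promoter, and several lists are short, so their intervals are wide. Of 29 bone matrix and collagen genes, 9 had a 3' region (31.0%, 17.3 to 49.2) and the median level of their 10 regions was 3.06. Sparc (osteonectin, a collagen-binding glycoprotein) had 4.37, Lox (which cross-links collagen) 4.09, Col6a1 4.01 and Col6a2 3.67, and Bgn (biglycan) 3.26, and each of these 5 lay after the gene end. Col1a1 and Col1a2, the chains of type I collagen, had weak regions of 1.13 and 1.88.

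Of 24 genes of mineral metabolism and the osteocyte, 7 had a 3' region (29.2%, 14.9 to 49.2). Besides Csf1, the phosphate transporter Slc20a1 had 3.06 and Ank, which sets pyrophosphate outside the cell, had 2.84 and 2.29, all after the gene end. Enpp1, which makes pyrophosphate, and Fgfr1, a receptor for FGF23, had 2.51 each on their 3' UTRs. Alpl, the phosphatase that breaks pyrophosphate down, had 2.13 and Cd44, the hyaluronan receptor, 1.24. Fgf23, the phosphate hormone of osteocytes, had no member: the region at its 3' end (chr6:127079641-127080567, level 4.23) covered 92 bases of UTR and 438 coding bases, over the limit of 50. Egln1, the main HIF prolyl hydroxylase, had no region on its UTR or in the 1 kb after it.

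Of 35 HIF targets and oxygen sensing genes, 6 had a 3' region (17.1%, 8.10 to 32.7). Their median level, 1.31, was below the 1.94 of all 3' regions, but it rests on 6 regions from 0.82 to 4.01. All but the highest were 220 to 361 bp wide, and the medians were not compared within width. The highest was after Adm, which encodes the vasodilator peptide adrenomedullin, with 4.01 over 946 bp, 7 HRE cores, 1 AP-1 site and 1 CTCF core. A RefSeq start of the long noncoding RNA Gm28863, not held by the GENCODE set used for the rule, lay inside this region. Loxl2, a lysyl oxidase, had 2.98 on its UTR. Hmox1 (haem breakdown) had 1.47, Ldha (lactate production) 1.16, Kdm4b (a histone demethylase) 1.16 and Car9 (carbonic anhydrase) 0.82.

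Of 31 osteogenic and mesenchymal transcription factors, 6 had a 3' region (19.4%, 9.19 to 36.3), with a median level of 3.76 over 8 regions. Sp7 (osterix, which osteoblasts need to form) had 5.23 after its end and Klf6 had 5.18 in a region that covered 474 bases of its UTR and ran past the end. Id3, an inhibitor of bHLH factors, had 4.62 in a region just past the distance limit, 1031 bp from an annotated Id3 start. Dlx3 had 4.47 and 3.04, and Prrx1, a factor of limb mesenchyme, had 2.81 on an earlier UTR. Of 12 AP-1 subunit genes, Jun (2.90) and Fosl2 (2.62) had a 3' region.

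Of 42 genes of Wnt, Hippo and BMP or TGF-beta signalling, 12 had a 3' region (28.6%, 17.2 to 43.6). The highest were Tcf7, a nuclear partner of beta-catenin, with 5.05 over its UTR, the ligand gene Wnt7b with 4.16, the receptor gene Fzd7 with 3.47, the Hippo pathway factor Tead4 with 3.11 and the growth factor gene Tgfb1 with 2.99. Of 26 cytoskeleton and adhesion genes, 7 had one (26.9%, 13.7 to 46.1). Actb had 5.15 after the gene end, in a region just past the distance limit, 1020 bp from an annotated Actb start. Vim had 4.53 after its end, Tln1 (talin) 3.47, and Vcl (vinculin) 3.07 in a region that also touched Ap3m1. Of 21 genes of polyadenylation and 3' end processing, the machinery that makes gene ends, 3 had a 3' region (14.3%, 4.98 to 34.6): the poly(A) polymerase genes Papolg with 2.59 and Papola with 1.45, and Cstf1, of the cleavage stimulation factor, with 1.01.

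Near the 1 kb limit the values were alike on both sides. The member nearest to a start was 1005 bp away with a level of 2.05, and the nearest region left out for its distance was 994 bp away with 1.88. Within 250 bp inside the limit 79 regions had a median of 2.09, and within 250 bp outside it 65 regions had 1.96. Few members looked like promoters by sequence: 27 (1.12%) were CpG-rich, against 41.0% of promoter regions, with a median level of 3.09. In addition 45 members (1.87%) lay within 1 kb of a RefSeq start, 40 of these starts being those of model transcripts, and their median level was 1.59. Among marker genes, 4 of 5 of progenitors had a promoter region, at 5.05 to 6.14, as did 2 of 6 osteocyte markers (Dmp1 and Fgf23, at 4.41 and 2.89) and 4 of 10 markers of other cell types, at 1.84 to 3.38. These values pool both stages and check no single label.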

How the data were processed

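ATAC-seq was made from MPC2 cells. According to the methods and the submitters' processing notes, the authors trimmed reads, aligned them to mm10 with Bowtie2, removed duplicates with Picard 2.17.8, called peaks with MACS2 2.2.7.1, merged the peaks of several samples, removed blacklisted regions, counted cuts and normalised with edgeR 3.24.3. A shift for the transposase offset is not given in the sources used here. Merging makes widths depend on the libraries behind a region. The deposited value was taken as the average log2 CPM over all samples, inferred from 460 values below 0 and from 2 to the power of the value summing to 1012761. Since the list holds no value per sample, no group was compared. The authors' own calls of regions that differ by drug or stage, with fold changes and adjusted p-values, accompany the paper and were not used here.

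Regions were set against GENCODE transcripts on the same assembly, and 0 ran past a chromosome end. The limits were 1000 bp from starts, 50 coding bp and 1000 bp after gene ends. A region that touched several genes was counted once among regions, and once for each gene in counts of genes and in the gene lists. Motifs were searched in the reference sequence of each whole region and of its central 200 bp. CpG-rich meant at least 55% G and C and an observed over expected CpG of at least 0.6. Assignment, motif search and intervals were tested on simulated or brute-force cases. Named regions were the 12 highest, the 5 highest after gene ends, the 5 widest, the 5 genes with the most regions (ties by summed CPM), the 5 highest of each gene list and the 6 highest with each motif. Of the named regions, 1 is not reported here. The CTCF and poly(A) sites and the highest regions on earlier UTRs were added after values were seen. Regions, motifs and gene lists were chosen with earlier results of these data known. Alternatives changed the distance limits, the window, the widths, the motifs and the chromosomes used. Python 3.11.15, pandas 2.3.3, numpy 2.4.6, scipy 1.17.1 and matplotlib 3.10.9 were used.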

Additional observations from a re-analysis of the deposited data

How the results depend on the processing

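Of 47 alternatives, 29 stayed within the interval of the reported value, or within 1.5 times for the count. Regions at least 500 bp wide numbered 865, with a median level of 3.24, AP-1 sites in 30.1%, HRE cores in 57.7% and central CTCF cores in 5.09%, where other regions away from starts of that width had 33.6%, 55.2% and 2.95%. Windows of 500 bp and 2 kb after the gene end put 71.1% and 40.7% of regions on a 3' UTR. Asking for the midpoint gave 62.4% and a median level of 1.87. TGANTCA was in 24.6%, and in the central 200 bp AP-1 was in 11.0% and the HRE core in 19.6%. ACGTG alone was in 21.6%. For the central CTCF core, settings added after seeing the data gave 2.87% with AGGGGGC as its last letters (1.15% in other regions away from starts), 0.083% with reversed letters (which bring in a CpG, so this is no check of composition) and 16% over the whole region. Bases of 3' UTR inside a region were 2.23% beyond 2 kb from starts and 2.20% without chromosome 16. The CTCF share stayed above, and the AP-1 share below, that of other regions away from starts for wide regions and without chromosome 16, but for AP-1 in wide regions the intervals just overlapped (27.1 to 33.2 and 33.1 to 34.2). Leaving out regions near RefSeq starts, also added later, gave 2362 regions and kept the 3' UTR share, the median level and the CTCF share within their intervals. It was not run for AP-1 and HRE.

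No paired analysis was possible because each region has a single pooled value, and for the same reason no library was left out. The depth of the libraries is unknown, and weak regions cannot be told apart from regions present in few libraries.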

Other observations

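The 3' regions were spread over 20 chromosomes, and their number did not follow the number of coding genes evenly. Chromosome 16 had 112 (16.9 per 100 coding genes), chromosome 1 had 198 (16.4) and chromosome 11 had 248 (15.1). Chromosome 13 had 47 (5.61) and chromosome X had 23 (2.43), the lowest share. Median levels ran from 1.62 on chromosomes 9 and X to 2.19 on chromosome 17, whose 113 regions came to 10.7 per 100 coding genes. Of all regions on each chromosome, the 3' regions made up 3.47% on chromosome 11 and 1.36% on chromosome 13.

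Of 1031 regions after a gene end, 97 (9.41%, 7.77 to 11.3) overlapped the body of a coding gene. Any overlap counted, and the region's own gene was not excluded. The start nearest to a 3' region belonged to the same gene in 52.0% (50.0 to 54.0) of cases. A single region touched 22 coding genes.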
